A study of Mus musculus with 10 samples.

Results

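The genes described here are 9 genes of retinoic acid metabolism and response, taken by symbol from a table of 36066 mouse genes. They were Aldh1a1 and Aldh1a2, which code for enzymes that make retinoic acid, Cyp26a1 and Cyp26b1, which code for enzymes that break it down, the nuclear receptors Rara, Rarb and Rarg, and Crabp1 and Crabp2, which code for proteins that bind retinoic acid in the cytoplasm. All 9 were found in the table, and all 9 passed the filter on low values (at least 0.1 TPM in at least 2 libraries) that 27259 genes passed. Aldh1a1, Cyp26a1, Cyp26b1 and Rarb passed it through PGCLC and PGC libraries alone.

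RNA was sequenced from 5 groups of mouse cells of strain C57BL6, with 2 libraries in each group. Female ESCs are embryonic stem cells from fertilized embryos, and pESCs are parthenogenetic embryonic stem cells from chemically activated oocytes, which carry no paternal genome. The study describes both kinds of line as derived on mouse fibroblast feeders from C57BL/6 animals carrying a β-actin-GFP transgene. ESC-PGCLCs and pESC-PGCLCs are primordial germ cell-like cells made from these lines by a step through epiblast-like cells and 4 days with BMP4 at 500 ng/mL, SCF, EGF and LIF, and they were sorted by the surface antigens SSEA1 and CD61. PGCs are primordial germ cells of the embryo. The study collected them from gonads of female embryos at 2 embryonic stages, either by flow cytometry for CD61 and SSEA1 or with magnetic beads against SSEA1. The labels name neither route and give no embryonic day for them, so the stage of these PGC libraries is not known here. No group is a genetic or drug perturbation of the retinoic acid pathway. The study calls its RNA-seq replicates biological, and the sources used here do not say which lines, cultures or litters the 2 libraries of a group came from, so the p-values measure only the spread between these libraries.

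Retinoic acid is made from vitamin A in a pair of oxidation steps, the last of which is carried out by the ALDH1A enzymes, and it is removed by CYP26 hydroxylases. It binds RAR receptors, which pair with RXR receptors on DNA at retinoic acid response elements and turn on target genes, among them Rarb and Cyp26a1. In the fetal ovary and its neighbouring mesonephros retinoic acid signaling is linked to the activation of Stra8 and the entry of germ cells into meiosis, while CYP26B1 in the fetal testis degrades it. The medium described for PGCLC induction names no retinoic acid.

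Values are TPM, the share of a library's transcripts that a gene accounts for after its reads are corrected for gene length. TPM multiplied by gene length gave whole numbers of reads (within 0.05 read) for 96.3% to 97.0% of values under 100 reads, so the reads behind each value could be recovered, and libraries held 6779844 to 18572907 such reads. Differences were tested with limma on log2(TPM + 1) over the 27259 genes, and a gene was called when its Benjamini-Hochberg adjusted p was under 0.05 and its change at least 2-fold on that scale. That scale understates the change of genes near or below 1 TPM. The median log2 difference over all tested genes lay between -0.06 and 0.28 in the 8 comparisons as deposited, and between -0.04 and 0.06 once each library was centred on its median, so centred values are given below where they end a call. Germ cell marker genes summed to 5476.5 to 7910 TPM in the PGCLC and PGC libraries and to 407 to 931 TPM in the stem cells, with all 11 at 1 TPM or more in every PGCLC and PGC library. In each stem cell library 9 of the 11 were at 1 TPM or more. Most of the sum was Dppa3 and Dazl. Mean Prdm14 differed little, at 17.6 TPM in ESCs, 13.0 in pESCs, 17.4 in ESC-PGCLCs, 14.6 in pESC-PGCLCs and 20.8 in PGCs. Pou5f1 is a gene that pluripotent cells and early germ cells share. It lay between 0 and 3.14 TPM in the PGCLC and PGC libraries and between 7.49 and 23.5 TPM in the stem cells. The study describes this gene as expressed at high levels in ESCs and pESCs. The reason for the low values here was not tested. Nanog had means of 572 and 408 TPM in ESCs and pESCs, and 29.6, 31.9 and 37.6 TPM in ESC-PGCLCs, pESC-PGCLCs and PGCs. Mean Zfp42 and Esrrb were also lower in those germ cell groups than in either stem cell group. Mean Sox2 did not share this direction, at 38.7, 49.1, 104, 26.8 and 79.2 TPM in the same order of groups.

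Aldh1a1, Aldh1a2, Crabp1 and Crabp2 were the abundant genes of the set, with group means up to 45.1 TPM. Each lay higher in every PGCLC and PGC library than in any stem cell library, though only just so in ESC-PGCLCs for Aldh1a2 and Crabp1. The share of all genes that separate in this way is not given, so this separation is no result about the set. Aldh1a1, Crabp1 and Crabp2 were also called higher in pESC-PGCLCs than in ESC-PGCLCs, where 10.3% of all tested genes were. None of the 9 genes was called between pESCs and ESCs, which differ in origin as well. The 2 kinds of PGCLC also differed in recovered reads (7697693 and 6779844 in ESC-PGCLCs, 14807834 and 16704578 in pESC-PGCLCs) and in summed markers of other cell types. The degrading enzymes and the receptors stayed at or below 2.15 TPM in every library, and among them Cyp26a1 was called in PGCs against stem cells. In bulk samples, fewer cells of a type and less RNA per cell cannot be told apart. Summed markers of gonadal somatic cells, endothelium and mesoderm, given with the other marker lists, ranked the 3 germ cell groups in the same order as Aldh1a1, Aldh1a2, Rara and Rarb. Single genes of the endothelial and mesoderm lists did not all follow that order.

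**Figure D1:**
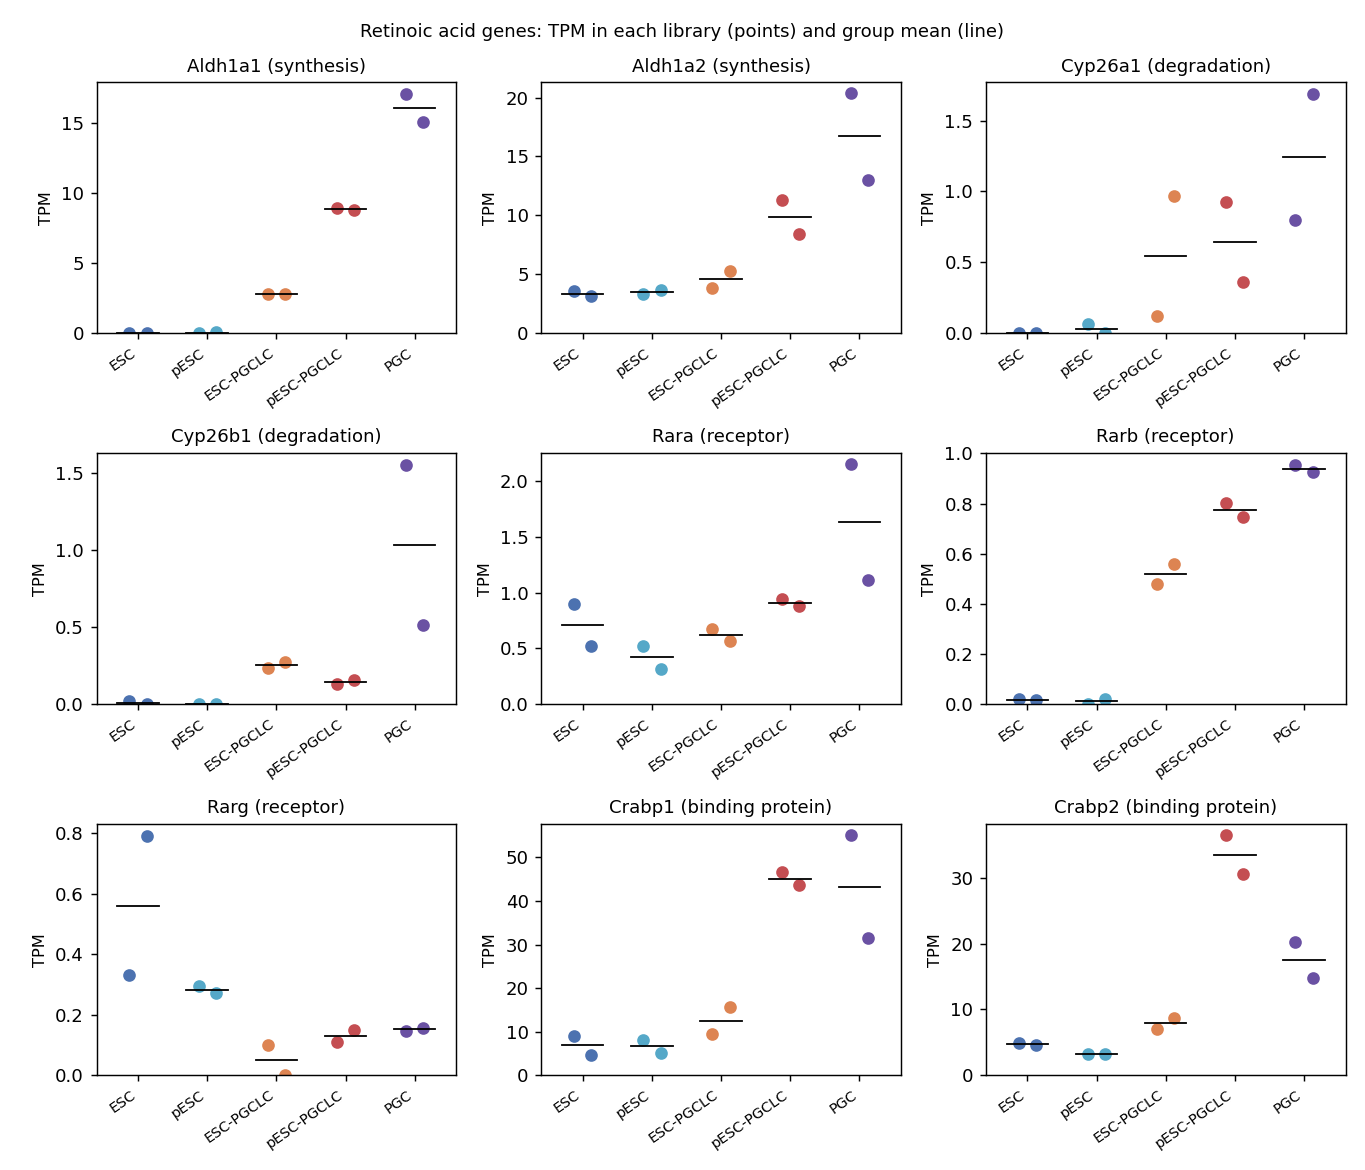
TPM of the 9 retinoic acid genes (1 panel a gene, linear axis from 0) in each of the 10 libraries, with points for libraries and a line for the mean of each group of 2. Aldh1a1, Aldh1a2, Cyp26b1, Rara and Rarb were highest in both PGC libraries, and Cyp26a1 was highest in PGCs by its mean. Crabp2 was highest in pESC-PGCLCs (30.5 and 36.5 TPM), and Rarg was highest in ESCs (0.331 and 0.790 TPM).

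Of the enzymes that make retinoic acid, Aldh1a1 (chromosome 19, 20492715 to 20643465, plus strand of GRCm38) was listed at 0 in both ESC libraries and at 0 and 0.0935 TPM in pESCs. It reached 2.77 and 2.79 TPM in ESC-PGCLCs, 8.92 and 8.77 TPM in pESC-PGCLCs and 17.1 and 15.1 TPM in PGCs. The 3 germ cell groups did not overlap with each other or with the stem cells, and the reads behind these values were 4 in all 4 stem cell libraries together, 121 in ESC-PGCLCs, 782 in pESC-PGCLCs and 1208 in PGCs. On recovered reads Aldh1a1 was at least 96.4-fold higher in ESC-PGCLCs than in ESCs, taking 3 reads over the 2 ESC libraries as the limit that 0 reads allow. Against pESCs it was 190-fold higher in pESC-PGCLCs (95% interval 74.1 to 700.5, counting error only). Aldh1a1 rose in both kinds of PGCLC, by a log2 difference of 1.92 ± 0.16 (SE, adjusted p = 3.9e-05) in ESC-PGCLCs against ESCs and of 3.23 ± 0.16 (adjusted p = 6.8e-06) in pESC-PGCLCs against pESCs.

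Aldh1a1 was also higher in pESC-PGCLCs than in ESC-PGCLCs, by a log2 difference of 1.38 ± 0.16 (adjusted p = 0.00078). PGCs exceeded ESC-PGCLCs by 2.17 ± 0.16 (adjusted p = 0.00062). Their difference from pESC-PGCLCs was 0.79 ± 0.16 (adjusted p = 0.031), which is under 2-fold. The order of the groups was therefore stem cells, ESC-PGCLCs, pESC-PGCLCs and PGCs, and the only neighbours not called were the last pair and ESCs with pESCs (log2 difference 0.06, adjusted p = 0.998).

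Aldh1a2 (chromosome 9, 71215789 to 71296243, plus strand), the main retinoic acid-producing enzyme of the early embryo, was present in all 10 libraries. Its TPM was 3.55 and 3.12 in ESCs, 3.37 and 3.67 in pESCs, 3.81 and 5.32 in ESC-PGCLCs, 11.3 and 8.45 in pESC-PGCLCs and 20.4 and 13.0 in PGCs. The 2 stem cell groups overlapped, ESC-PGCLCs lay only just above them, and pESC-PGCLCs and PGCs lay clear of the rest. The log2 difference was 0.35 ± 0.25 (adjusted p = 0.30, 95% interval -0.23 to 0.93) in ESC-PGCLCs against ESCs, and 1.26 ± 0.25 (adjusted p = 0.0042) in pESC-PGCLCs against pESCs, which was 0.59 and not called once libraries were centred (adjusted p = 0.072). Against ESC-PGCLCs, Aldh1a2 was higher in pESC-PGCLCs by 0.97 ± 0.25 (adjusted p = 0.026), just under 2-fold, and higher in PGCs by 1.65 ± 0.25 (adjusted p = 0.0034). PGCs and pESC-PGCLCs differed by 0.68 (adjusted p = 0.12).

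The retinoic acid response element was searched in the promoters because Rarb and Cyp26a1 are standard targets of the pathway. A half-site was the consensus AGGTCA, the variant form AGTTCA, the further variant form GGGTCA or the remaining variant form GGTTCA. The element was taken as 2 half-sites in the same direction, 5 bases apart, on either strand, within 250 bases before to 50 bases after each RefSeq start on GRCm38.p6. It was found in 32 of 32851 such windows (0.0974%), and 2 of these belong to genes of this set, Rarb and Cyp26a1. Sites of known targets such as Rarb went into the usual definition of the element, so these matches locate known elements and are no result about the set. The site of Rarb lies 53 to 37 bases before the RefSeq start and, in GENCODE, in an exon of 2 of the 7 Rarb transcripts. That of Cyp26a1 lies 32 to 16 bases before its start, on the opposite strand. Both sites are shown 5′ to 3′ on the strand of the gene, with the element in capitals, as the sequences through which this pathway is known to act on its own members.
Rarb, chr14:16575508-16575537, minus strand: ccgggaagGGTTCACCGAAAGTTCActcgc
Cyp26a1, chr19:37697768-37697797, plus strand: attaaagaTGAACTTTGGGTGAACTaattt
With a spacing of 2 or 1 bases the element was found in 0.268% and 0.222% of windows and in none of the windows of the genes of this set that were matched, which were 8 genes. Half-sites of the 3 spacings can overlap, and a match describes letters in a window, not binding.

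The enzymes that break retinoic acid down stood far lower. Cyp26a1 (chromosome 19, 37697798 to 37701536, plus strand), which holds the printed element just before its start, was listed at 0 in both ESC libraries and 1 pESC library and at 0.0642 TPM in the other, which is 1 read. It was at 0.119 and 0.970 TPM in ESC-PGCLCs, 0.927 and 0.360 TPM in pESC-PGCLCs and 0.796 and 1.69 TPM in PGCs, from 1 to 27 reads a library. Replicates of each germ cell group differed by more than 2-fold and the 3 groups overlapped, while every germ cell library lay above every stem cell library. The lowest germ cell value (ESC-PGCLC replicate 1) and the highest stem cell value (pESC replicate 1) were each 1 read, so they differ only through depth. The ESC-PGCLC libraries had the fewest recovered reads of any group (7697693 and 6779844). The rise in PGCs against the mean of both stem cell groups was called, at a log2 difference of 1.11 ± 0.26 (adjusted p = 0.0072), but it was 0.86 with centred libraries and 0.82 without PGC replicate 2 (adjusted p = 0.071), both uncalled. In ESC-PGCLCs against ESCs the log2 difference was 0.57 (adjusted p = 0.17), and in pESC-PGCLCs against pESCs it was 0.65 (adjusted p = 0.12). The read ratio of pESC-PGCLCs to pESCs was 19.5 (95% interval 3.12 to 807).

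Cyp26b1 (chromosome 6, 84571414 to 84593908, minus strand) had 1 read in the 4 stem cell libraries. It was at 0.236 and 0.275 TPM in ESC-PGCLCs and 0.132 and 0.159 TPM in pESC-PGCLCs, from 12 and 14 reads in all, and at 1.55 and 0.517 TPM in PGCs, with 53 and 25 reads. PGCs were highest, though their 2 libraries stood far from each other. The 2 PGCLC groups did not overlap, with ESC-PGCLCs above pESC-PGCLCs. That difference, pESC-PGCLCs against ESC-PGCLCs, was -0.13 on the log2 scale (limma adjusted p = 0.72), and the read ratio was 0.574 (95% interval 0.247 to 1.36). The PGC difference from the stem cells was 0.97 ± 0.18 on the log2 scale (adjusted p = 0.0022), just under 2-fold on log2(TPM + 1), and it was called with a pseudocount of 0.1 TPM (3.27), with voom on recovered reads (5.79) and without PGC replicate 2 (1.34), while without PGC replicate 1 it was 0.59 and uncalled. In reads PGCs exceeded pESC-PGCLCs 6.48-fold (95% interval 3.64 to 12.4), and the log2 difference of 0.78 had an adjusted p of 0.056.

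Among the receptors, Rara (chromosome 11, 98927818 to 98974942, plus strand), the most widely expressed RAR, was low in every group. Its TPM was 0.895 and 0.520 in ESCs, 0.521 and 0.317 in pESCs, 0.674 and 0.563 in ESC-PGCLCs, 0.942 and 0.877 in pESC-PGCLCs and 2.15 and 1.12 in PGCs. PGCs lay above all other libraries, and every other library was under 1 TPM. The PGC difference from the stem cells was 0.74 ± 0.19 on the log2 scale (adjusted p = 0.011), under 2-fold, 0.34 with centred libraries (adjusted p = 0.16), past 2-fold, at 1.02, without PGC replicate 2, and 0.45 without PGC replicate 1 (adjusted p = 0.077).

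Rarb (chromosome 14, 16430839 to 16819156, minus strand), the RAR whose gene is itself switched on by retinoic acid and holds the other printed element, had 3 reads in the 4 stem cell libraries. It stood at 0.0206 and 0.0160 TPM in ESCs, 0 and 0.0219 TPM in pESCs, 0.479 and 0.560 TPM in ESC-PGCLCs, 0.803 and 0.747 TPM in pESC-PGCLCs and 0.953 and 0.925 TPM in PGCs. The 3 germ cell groups ranked in the same order as for Aldh1a1, without overlap between them. The log2 difference was 0.58 ± 0.10 (adjusted p = 0.0025) in ESC-PGCLCs against ESCs, 0.81 ± 0.10 (adjusted p = 0.00049) in pESC-PGCLCs against pESCs and 0.93 ± 0.09 (adjusted p = 6.3e-05) in PGCs against the stem cells. Each was under 2-fold on log2(TPM + 1), where a gene that goes from 0 to 1 TPM moves by exactly 2-fold, and with voom on recovered reads they were 4.24, 5.09 and 5.14 and all called. In reads Rarb was 28.7-fold higher in ESC-PGCLCs than in ESCs (95% interval 7.12 to 250) and 71.1-fold higher in pESC-PGCLCs than in pESCs (95% interval 12.4 to 2846). Of the exonic bases of Rarb in GENCODE M21, 38.4% overlap other genes on the opposite strand, chiefly Top2b, and whether the counting used strand is not given in the sources used here. Top2b had means of 1.20 and 1.33 TPM in the stem cell groups, 8.49 and 8.78 TPM in the PGCLC groups and 14.9 TPM in PGCs, so it too was higher in the germ cell groups, and its part in the Rarb reads was not tested.

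Rarg (chromosome 15, 102234938 to 102257517, minus strand) ran the other way. Its TPM was 0.331 and 0.790 in ESCs, 0.294 and 0.271 in pESCs, 0.0987 and 0 in ESC-PGCLCs, 0.110 and 0.150 in pESC-PGCLCs and 0.147 and 0.156 in PGCs. Every stem cell library lay above every germ cell library, on 10 to 40 reads against 0 to 6. The log2 difference in ESC-PGCLCs against ESCs was -0.56 ± 0.14 (adjusted p = 0.013), under 2-fold on this scale and called by voom at -3.25, and the read ratio was 0.0902 (95% interval 0.0106 to 0.342). In pESC-PGCLCs against pESCs it was -0.18 (adjusted p = 0.34). Rarg was the one gene of the 9 with a lower mean in each of the 3 germ cell groups than in both stem cell groups.

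Of the binding proteins, Crabp1 had the highest mean TPM of the 9 genes in every group, while Crabp2 lay below Aldh1a2 in pESCs. Crabp1 (chromosome 9, 54764748 to 54773110, plus strand) was at 8.93 and 4.72 TPM in ESCs, 8.09 and 5.18 TPM in pESCs, 9.44 and 15.6 TPM in ESC-PGCLCs, 46.6 and 43.6 TPM in pESC-PGCLCs and 55.1 and 31.5 TPM in PGCs. ESCs and pESCs overlapped, and so did pESC-PGCLCs and PGCs, with ESC-PGCLCs between the pairs. Crabp1 rose in pESC-PGCLCs against pESCs by a log2 difference of 2.62 ± 0.38 (adjusted p = 0.00086). In ESC-PGCLCs against ESCs the difference was 0.81 ± 0.38 (adjusted p = 0.12, 95% interval -0.07 to 1.68). It was higher in pESC-PGCLCs than in ESC-PGCLCs by 1.81 ± 0.38 (adjusted p = 0.012), a call lost without ESC-PGCLC replicate 1, pESC-PGCLC replicate 1 or pESC-PGCLC replicate 2, where adjusted p reached 0.075. PGCs exceeded ESC-PGCLCs by 1.70 ± 0.38 (adjusted p = 0.013), which was 1.07 with centred libraries (adjusted p = 0.11), 1.36 without ESC-PGCLC replicate 1 (adjusted p = 0.080) and 1.30 without PGC replicate 1 (adjusted p = 0.082), each uncalled.

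Crabp2 (chromosome 3, 87948666 to 87953376, plus strand), whose product carries retinoic acid to the nucleus, was at 4.93 and 4.65 TPM in ESCs, 3.27 and 3.14 TPM in pESCs, 7.00 and 8.73 TPM in ESC-PGCLCs, 36.5 and 30.5 TPM in pESC-PGCLCs and 20.3 and 14.7 TPM in PGCs. The 5 groups did not overlap, and the order was pESCs, ESCs, ESC-PGCLCs, PGCs and pESC-PGCLCs. The lowest pair, pESCs and ESCs, differed by -0.46 ± 0.19 on the log2 scale (adjusted p = 0.26). Crabp2 rose in pESC-PGCLCs against pESCs by 3.03 ± 0.19 (adjusted p = 2.0e-05), and in ESC-PGCLCs against ESCs the difference was 0.61 ± 0.19 (adjusted p = 0.032), under 2-fold. It was higher in pESC-PGCLCs than in ESC-PGCLCs by 1.96 ± 0.19 (adjusted p = 0.00044), a call that was kept in all 10 fits that left out 1 library. PGCs exceeded ESC-PGCLCs by 1.05 ± 0.19 (adjusted p = 0.0064), which was 0.45 with centred libraries (adjusted p = 0.13), and under 2-fold without ESC-PGCLC replicate 1 (0.91) or PGC replicate 1 (0.83). PGCs lay below pESC-PGCLCs by -0.91 ± 0.19 (adjusted p = 0.035), under 2-fold as deposited and called at -1.10 with centred libraries (adjusted p = 0.018).

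**Figure D2:**
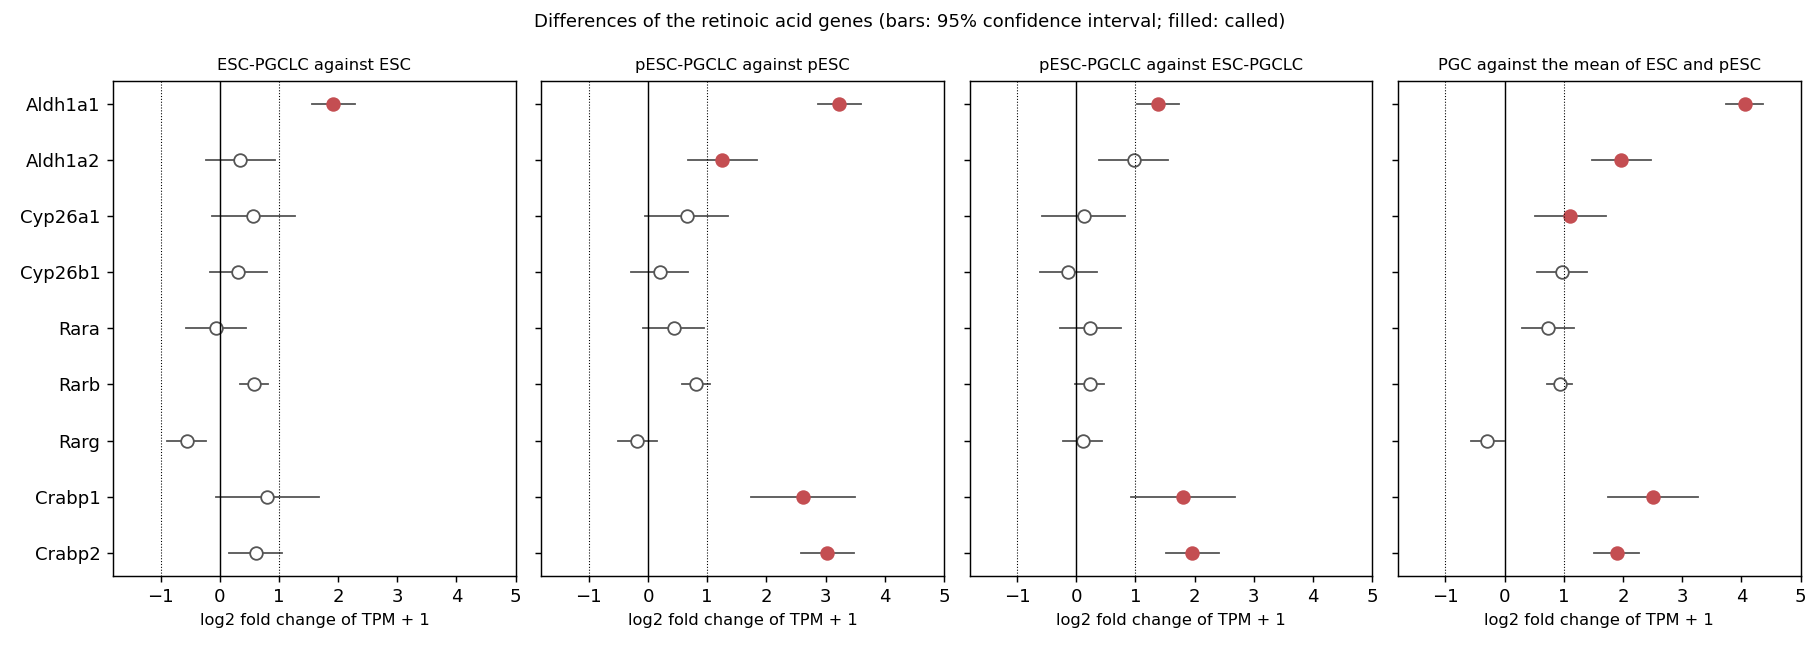
Log2 fold change of TPM + 1 of the 9 retinoic acid genes in 4 comparisons, with bars for the 95% confidence interval of limma, dotted lines at a 2-fold change and filled points for called genes. Aldh1a1 was called in all 4, Crabp1 and Crabp2 in 3, Aldh1a2 in 2 and Cyp26a1 in 1, and the receptors in none.

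The design asks how pESCs and their PGCLCs compare with ESCs and theirs, and how both compare with PGCs. None of the 9 genes was called by limma in pESCs against ESCs, where 0.165% of all tested genes were called higher and 0.616% lower. At an unadjusted p under 0.05, 1 of the 9 genes passed (Crabp2), and voom on recovered reads called 0. In ESC-PGCLCs against ESCs 1 of 9 was called higher (Aldh1a1) and 0 lower, against 15.3% of all genes higher and 14.5% lower. In pESC-PGCLCs against pESCs 4 of 9 were called higher (Aldh1a1, Aldh1a2, Crabp1 and Crabp2), or 3 with centred libraries, and 0 lower, against 20.8% and 6.8% of all genes. The median log2 difference of the 9 genes was 0.57 in ESC-PGCLCs and 0.81 in pESC-PGCLCs, beside 0.05 and 0.22 over all genes.

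Between the PGCLCs, 3 of 9 genes were called higher in pESC-PGCLCs (Aldh1a1, Crabp1 and Crabp2) and 0 lower, against 10.3% and 3.08% of all genes, and the median of the 9 was 0.24 beside 0.12. These 3 genes were also called in the interaction, which tests whether the change from stem cell to PGCLC differed between pESCs and ESCs. There 15.5% of all genes were called higher and 3.53% lower. The interaction was 2.42 ± 0.27 for Crabp2 (adjusted p = 0.00094), 1.32 ± 0.22 for Aldh1a1 (adjusted p = 0.0046) and 1.81 ± 0.54 for Crabp1 (adjusted p = 0.045). Crabp2 was called in each alternative fit, at 1.72 with centred libraries (adjusted p = 0.0040). Crabp1 was lost in 7 of the 10 fits that left out 1 library and with centred libraries (1.06, adjusted p = 0.23). Aldh1a1 was at 0.93 with centred libraries (adjusted p = 0.017), at 1.16 with a pseudocount of 0.1 TPM (adjusted p = 0.14), and at -0.42 with voom on recovered reads (adjusted p = 0.82), so its sign differed between these fits.

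PGCs were compared with each kind of PGCLC and with the mean of both stem cell groups, and these comparisons share the PGC libraries. Against ESC-PGCLCs, 4 of 9 were called higher (Aldh1a1, Aldh1a2, Crabp1 and Crabp2) and 0 lower, where 12% of all genes were called higher and 1.88% lower. With centred libraries 2 of them were called (Aldh1a1 and Aldh1a2), and in a fit of these 2 groups alone 0. Against pESC-PGCLCs limma called 0 of 9, where 2.07% of all genes were called higher and 1.6% lower. At an unadjusted p under 0.05, 4 of the 9 genes passed there, none of them at 2-fold, and voom on recovered reads called 1 (Cyp26b1). Against the stem cells 5 of 9 were called higher in PGCs (Aldh1a1, Aldh1a2, Cyp26a1, Crabp1 and Crabp2) and 0 lower, against 25.3% and 8.06% of all genes. With voom on recovered reads 8 of 9 were called there, and Rarg was the exception. The share of all genes that voom called is not given, so this count is no result about the set.

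The other genes of the pathway were described from 4 lists of 45 genes, of which 43 were in the table and 39 passed the filter. The largest difference belonged to a target gene. Stra8, the retinoic acid-responsive gatekeeper of meiosis, went from 2.53 and 3.59 TPM in ESCs to 192 and 212 TPM in ESC-PGCLCs, and from 5.49 and 5.76 TPM in pESCs to 410 and 359 TPM in pESC-PGCLCs, beside 333 and 343 TPM in PGCs. Its log2 differences from the stem cells were 5.65 ± 0.16 in ESC-PGCLCs (adjusted p = 1.1e-06), 5.86 ± 0.16 in pESC-PGCLCs and 6.04 ± 0.14 in PGCs. Stra8 was higher in pESC-PGCLCs than in ESC-PGCLCs by 0.93 ± 0.16 (adjusted p = 0.0047), under 2-fold, and its interaction was 0.21 (adjusted p = 0.57). Rec8, a meiotic cohesin subunit, was at 1.32 and 1.37 TPM in ESCs, 6.70 and 6.73 TPM in ESC-PGCLCs, 20.9 and 21.0 TPM in pESC-PGCLCs and 37.1 and 26.3 TPM in PGCs. Rec8 rose by 1.72 ± 0.20 and by 3.25 ± 0.20 in the 2 kinds of PGCLC and was higher in pESC-PGCLCs than in ESC-PGCLCs by 1.51 (adjusted p = 0.0014). Of the 11 tested targets, 4 were called higher and 1 lower (Cdx1, -1.42 and -1.02) in each kind of PGCLC, where 15.3% of all tested genes were called higher and 14.5% lower in ESC-PGCLCs and 20.8% and 6.8% in pESC-PGCLCs. The ESC-PGCLC call of Cdx1 was lost without ESC-PGCLC replicate 2 (-0.85) or ESC replicate 2 (adjusted p = 0.067), and its pESC-PGCLC call was lost in 8 of the 10 fits that left out 1 library.

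The enzymes that interconvert retinol, retinal and retinoic acid moved in both directions, with 4 of 12 tested called higher and 4 lower in ESC-PGCLCs, and 4 higher and 2 lower in pESC-PGCLCs, beside the same shares of all genes (15.3% and 14.5%, then 20.8% and 6.8%). Rdh10, which carries out the first oxidation of retinol in the embryo, was at 1.38 and 1.66 TPM in ESCs and 8.64 and 5.08 TPM in ESC-PGCLCs, and at 0.438 and 0.998 TPM in pESCs and 9.68 and 9.25 TPM in pESC-PGCLCs. Rdh10 rose by 1.60 ± 0.26 and 2.63 ± 0.26, and Rdh14, a related retinal reductase, rose by 2.28 ± 0.28 and 3.56 ± 0.28. Adh5 fell by 2.14 in ESC-PGCLCs and 1.08 in pESC-PGCLCs on the log2 scale, the latter -0.86 without pESC replicate 2, and Dhrs4 fell by 3.56 in ESC-PGCLCs. Dhrs3, which turns retinal back into retinol, was at 0 and 0.252 TPM in ESC-PGCLCs, 2.33 and 2.03 TPM in pESC-PGCLCs and 4.82 and 2.34 TPM in PGCs, and was higher in pESC-PGCLCs than in ESC-PGCLCs by 1.51 ± 0.26 (adjusted p = 0.0050). Cyp26c1, the remaining CYP26 enzyme, was at 0 in 9 libraries and at 0.067 TPM in 1.

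Aldh1a3, the remaining ALDH1A enzyme that makes retinoic acid, ran opposite to Aldh1a1 between the PGCLCs. It was at 9.26 and 7.60 TPM in ESCs, 15.6 and 16.9 TPM in pESCs, 18.1 and 26.3 TPM in ESC-PGCLCs, 3.51 and 2.44 TPM in pESC-PGCLCs and 11.9 and 10.2 TPM in PGCs. Aldh1a3 rose by 1.28 ± 0.22 (adjusted p = 0.0019) in ESC-PGCLCs against ESCs and fell by 2.13 in pESC-PGCLCs against pESCs (adjusted p = 0.00017). It was lower in pESC-PGCLCs than in ESC-PGCLCs, with a log2 difference of -2.54 ± 0.22 (adjusted p = 0.00028), and the interaction was -3.41 ± 0.31 (adjusted p = 0.00051). It was higher in PGCs than in pESC-PGCLCs by 1.61 ± 0.22 (adjusted p = 0.014), a call lost without either pESC-PGCLC replicate or without PGC replicate 1. Between ESC-PGCLCs and pESC-PGCLCs the 3 ALDH1A genes therefore did not share a direction, with positive differences for Aldh1a1 and Aldh1a2 and a negative one for Aldh1a3 as deposited, with centred libraries and with quantile normalization.

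In retinol handling, Rbp4, the carrier of retinol in blood, rose by 1.61 ± 0.22 in ESC-PGCLCs and 2.40 ± 0.22 in pESC-PGCLCs, from 0.175 to 0.534 TPM in the stem cells to 3.08 to 6.16 TPM. Lrat, which esterifies retinol for storage, rose by 1.46 ± 0.18 in ESC-PGCLCs. Its mean also went from 0.0108 TPM in pESCs to 0.609 TPM in pESC-PGCLCs, uncalled, and Lrat was not called in the interaction. Of the 12 partner receptors and coregulators, 2 were called higher and 1 lower in each kind of PGCLC, shares near those of all tested genes (15.3% and 14.5% in ESC-PGCLCs, 20.8% and 6.8% in pESC-PGCLCs). Ncoa2, a nuclear receptor coactivator, rose by 2.91 ± 0.17 and 2.68 ± 0.17, and Nrip1, a corepressor, rose by 1.78 ± 0.32 in ESC-PGCLCs. Ncoa1, another coactivator, rose by 1.46 ± 0.23 in pESC-PGCLCs and was just under 2-fold with centred libraries. Mean Nrip1 also went from 0.626 TPM in pESCs to 2.24 TPM in pESC-PGCLCs, and mean Ncoa1 from 1.06 TPM in ESCs to 2.56 TPM in ESC-PGCLCs. Both were uncalled there and in the interaction. Fabp5, which carries retinoic acid to PPARD, fell by 2.13 and 1.46 on the log2 scale. Among the RXR partners, Rxra and Rxrb were called in PGCs against the stem cells, at 1.33 ± 0.12 and 1.66 ± 0.22 (under 2-fold, at 0.81 and 0.90, with quantile normalization), and Rxrg stayed under 1 TPM in every library.

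**Figure D3:**
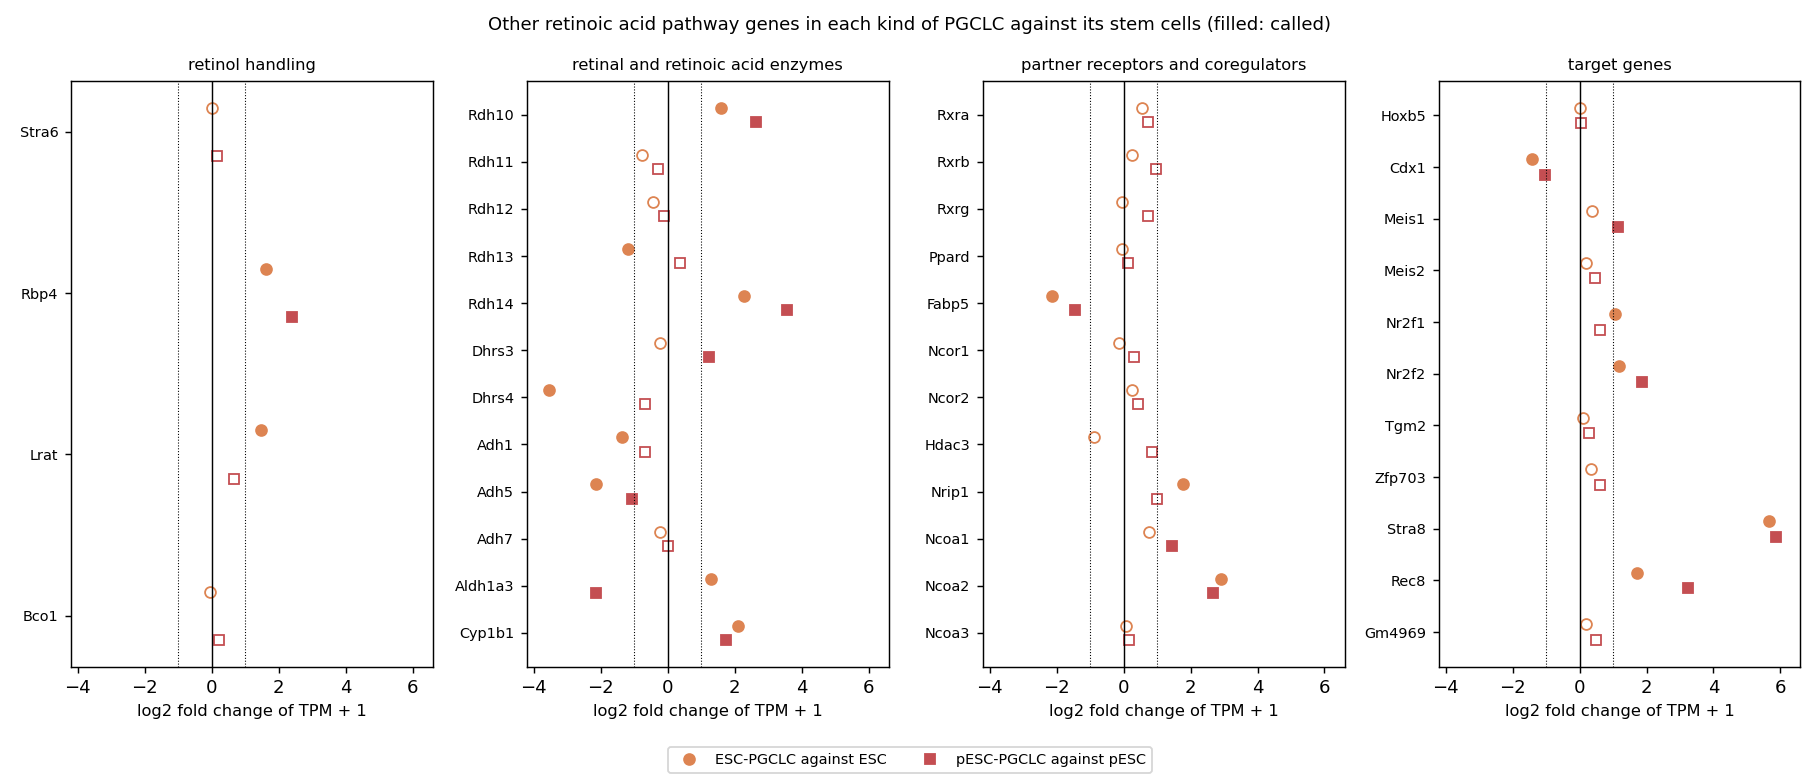
Log2 fold change of TPM + 1 of the 39 tested genes of 4 retinoic acid pathway lists, with circles for ESC-PGCLCs against ESCs, squares for pESC-PGCLCs against pESCs, filled symbols for called genes and dotted lines at a 2-fold change. Stra8 lies farthest to the right at 5.65 and 5.86, and Aldh1a3 is called in opposite directions, at 1.28 and -2.13.

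Marker genes of gonadal somatic cells were present in the germ cell libraries. The 8 markers (Wt1, Gata4, Nr5a1, Lhx9, Amhr2, Foxl2, Wnt4 and Emx2) summed to 3.83 to 4.80 TPM in the stem cells, nearly all of it Amhr2, to 18.1 and 23.0 TPM in ESC-PGCLCs, 49.6 and 43.3 TPM in pESC-PGCLCs and 93.4 and 84.6 TPM in PGCs. None of the 8 was at 0 in any PGCLC or PGC library. Wt1 alone was at 7.16 and 8.05 TPM in ESC-PGCLCs, 13.0 and 11.0 TPM in pESC-PGCLCs and 26.2 and 22.4 TPM in PGCs. This is the same order of these 3 groups as for Aldh1a1, Aldh1a2, Rara and Rarb. The induction described in the labels contains no gonadal tissue. A later step of the study joins PGCLCs with gonadal somatic cells and treats the aggregates with retinoic acid. That step is not named in the labels of these libraries. The part of these markers in the Aldh1a1, Aldh1a2, Rara and Rarb results was not tested.

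Blood markers differed as well, mostly through the haemoglobin genes Hba-a1 and Hbb-y. The 7 markers summed to 0.0678 to 3.95 TPM in the stem cells, 437 and 504 TPM in ESC-PGCLCs, 2762 and 2230 TPM in pESC-PGCLCs and 1890 and 1703 TPM in PGCs, so that pESC-PGCLCs were highest, as for Crabp2. Ptprc, the defining marker of white blood cells, was at 0 in both ESC-PGCLC libraries and at 0.0513 to 0.103 TPM in the other germ cell libraries. The 3 mesonephros markers in the table summed to 0 to 0.0484 TPM in the stem cells and to 4.19 to 8.62 TPM in the germ cell libraries, most of it Lhx1, while Pax2 lay between 0 and 0.0651 TPM. The 8 fibroblast markers summed to 0.237 to 0.512 TPM in the stem cells, 3.91 and 4.22 TPM in ESC-PGCLCs, 7.73 and 9.45 TPM in pESC-PGCLCs and 9.40 and 10.9 TPM in PGCs. The 4 endothelial markers summed to 6.36 to 7.74 TPM in the stem cells, 7.30 and 8.77 TPM in ESC-PGCLCs, 9.94 and 12.0 TPM in pESC-PGCLCs and 14.5 and 25.3 TPM in PGCs. The 5 mesoderm markers summed to 0.902 to 2.37, 3.63 and 3.87, 4.13 and 5.18, and 5.97 and 8.20 TPM in the same groups. The sums of both lists ranked the 3 germ cell groups as the gonadal somatic list did, without overlap. The fibroblast list did so by its means, with pESC-PGCLCs and PGCs overlapping. Most of the endothelial sum was Pecam1, with means of 4.71 and 4.47 TPM in ESCs and pESCs. Its means were 6.83, 8.97 and 16.9 TPM in ESC-PGCLCs, pESC-PGCLCs and PGCs. By their means Kdr, Hand1 and Mesp1 followed this order too, while Cdh5, Tek, T and Mixl1 did not, and Tbx6 was at 0 in both kinds of PGCLC. The part of these markers in the results for the 9 genes was not tested.

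**Figure D4:**
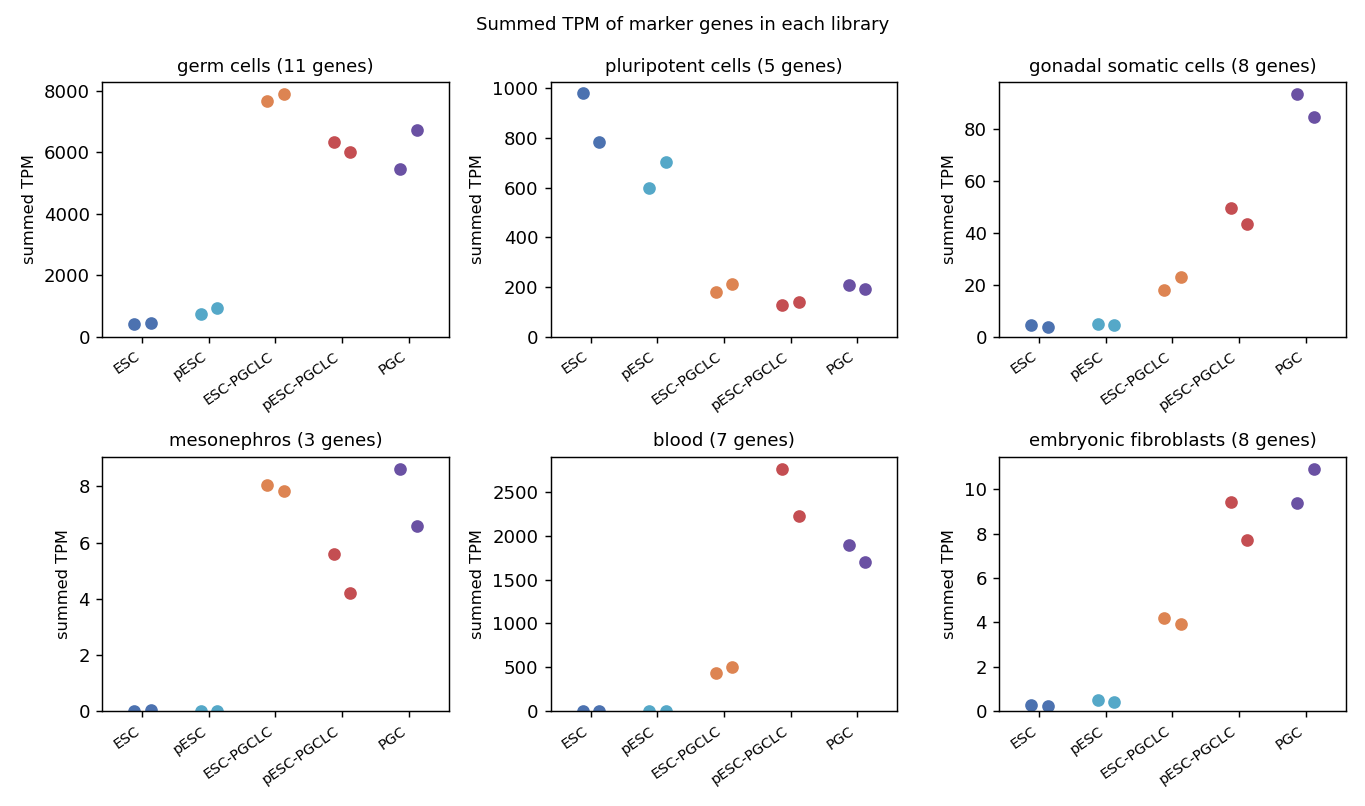
Summed TPM of 6 lists of marker genes (linear axes from 0) in each of the 10 libraries, coloured by group. The gonadal somatic cell list goes from 3.83 to 4.80 TPM in stem cells to 84.6 and 93.4 TPM in PGCs, and the blood list peaks in pESC-PGCLCs at 2230 and 2762 TPM.

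For the most abundant gene of each role, the 2 genes with the most similar pattern over the 10 libraries were found by Pearson's r of log2(TPM + 1) among 18021 genes with a group mean of at least 1 TPM. For Aldh1a2 they were Phf11c (r = 0.997) and Fanca (r = 0.99), a component of the Fanconi anaemia repair complex. For Cyp26a1 they were Gm11146 and Rbm11 (r = 0.98 and 0.96), for Rara Ext2 and Mier2 (r = 0.97 for both), and for Crabp1 Ccz1 and Cgn (r = 0.98 for both). The points share the split between stem cells and germ cells, so these values describe likeness of pattern over 10 libraries of 5 groups.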

How the data were processed

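RNA-seq of 10 libraries was analysed, 2 for each of 5 groups, grouped by their titles. Per the labels the submitters' processing notes name mm10, Bowtie2, HISAT2, RSEM, R 3.4.2 and DESeq2, and the methods describe Hisat2 and Feature-counts. The labels and the methods differ on library preparation. The authors deposited TPM for 36066 genes by symbol, with no further scaling named. The 9 genes and the other lists were chosen with earlier results of these data known. Of the lists, the text names the 2 highest and 2 lowest called genes in a comparison and 9 set genes (Stra8, Rec8, Rxra, Rxrb, Rxrg, Rdh10, Dhrs3, Aldh1a3 and Cyp26c1). Dhrs9 and Hoxb1 of the pathway lists and Osr1 of the mesonephros list were not analysed here. Meiosin is listed under its older symbol Gm4969. A further 2 genes of the pathway lists are not reported here.

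Reads were recovered from TPM and GENCODE M21 exon lengths (35861 symbols matched), and intervals and limits from them cover counting error only. For the read counts and ratios of Aldh1a1 and Cyp26a1 the length that gave whole reads was used (4934 and 1773 nt). Voom used rounded reads at their GENCODE lengths (4937 and 1983 nt). In R 4.3.3, limma 3.58.1 fitted 5 group means on log2(TPM + 1) for 27259 genes with variances following the mean (5 residual and 2.81 prior degrees of freedom), and Benjamini-Hochberg adjustment ran over all of them. With 2 libraries against 2, p-values rest on this variance model. The procedure was tested on simulated data. Alternatives were a pseudocount of 0.1 TPM, a filter of 1 TPM, no filter, quantile normalization, median centring on the 9024 genes at 1 TPM or above in all libraries, the compared groups alone, the replicate number as a block, no fold change minimum and leaving out each library. Voom on recovered reads was added after seeing the data. Same-numbered libraries of 2 groups deviated from their group means with correlations of -0.05 to 0.24 over 10 pairs of groups and 14839 genes. Tables and figures used Python 3.11.15, pandas 2.3.3, numpy 2.4.6, scipy 1.17.1 and matplotlib 3.10.9.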

Additional observations from a re-analysis of the deposited data

Results flagged for a closer look

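Among the 9 retinoic acid genes and the 39 tested genes of the pathway lists, 10 were called in limma's interaction term. For these, on the values as deposited, the change from stem cell to PGCLC was called different between pESCs and ESCs. Of all tested genes, 15.5% were called higher and 3.53% lower in this term, so the count alone is no result about these genes. Of the retinoic acid genes these were Crabp2 (log2 difference of the changes 2.42, adjusted p = 0.00094), Crabp1 (1.81, adjusted p = 0.045) and Aldh1a1 (1.32, adjusted p = 0.0046). Crabp1 and Aldh1a1 were uncalled with centred libraries, and the sign of Aldh1a1 reversed with voom on recovered reads. Aldh1a1 was near 0 TPM in both kinds of stem cell, so its interaction mostly restates its difference between the PGCLCs (1.38). Crabp2 was higher in pESC-PGCLCs than in pESCs in 2 of 2 libraries and in ESC-PGCLCs than in ESCs in 2 of 2 libraries, with the larger rise from pESCs. Of the other pathway genes they were Dhrs4 (2.87), Hdac3 (1.73), Rdh13 (1.57), Rec8 (1.53), Dhrs3 (1.45) and Adh5 (1.06), each with the more positive change from pESCs, and Aldh1a3 (-3.41), which was called in opposite directions from the 2 kinds of stem cell. The mean TPM of Hdac3, Rdh13 and Dhrs3 also went down from ESCs and up from pESCs, with Rdh13 called in ESC-PGCLCs, Dhrs3 in pESC-PGCLCs and Hdac3 in neither. All 6 of the genes with positive values kept a positive value with centred libraries, but Adh5 (0.27) was then uncalled, as were Rdh13 (0.88), Dhrs3 (1.13, adjusted p = 0.054) and Rec8 (0.90). With 1 library left out in turn, Dhrs3 was uncalled in 7 of 10 fits and Adh5 in 6. The summed gonadal somatic, blood, fibroblast, endothelial and mesoderm markers were also higher in both pESC-PGCLC libraries than in both ESC-PGCLC libraries. The part of these markers in these differences was not tested.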

How the results depend on the processing

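Among the 9 retinoic acid genes, the number called in ESC-PGCLCs against ESCs was 1 and became 5 with a pseudocount of 0.1 TPM, 5 with voom on recovered reads and 4 with no fold change minimum. In pESC-PGCLCs against pESCs it was 4, and 7 with voom. In the interaction it was 3, and 1 (Crabp2) with a pseudocount of 0.1 TPM, quantile normalization, median centring or voom, where Aldh1a1 reversed to -0.42 (adjusted p = 0.82). In PGCs against ESC-PGCLCs it was 4, and 2 with quantile normalization or median centring, 0 in a fit of the compared groups alone and 2 to 5 when 1 library was left out. In PGCs against pESC-PGCLCs it was 0, and 1 with quantile normalization, median centring or voom, 2 with no fold change minimum and 0 to 1 when 1 library was left out (Cyp26b1, without PGC replicate 2). In PGCs against the stem cells it was 5, and 8 with a pseudocount of 0.1 TPM, voom or no fold change minimum. For all 8 comparisons the replicate block gave the same number of calls as without it (1 in ESC-PGCLCs against ESCs and 4 in pESC-PGCLCs against pESCs), and the correlations of same-numbered libraries (-0.05 to 0.24) did not show that the numbers pair them. With 1 library left out, the lone library of its group was assumed to vary like the other groups, and the counts stayed at 0 for pESCs against ESCs, 2 to 4 between the PGCLCs, 1 and 4 for the 2 kinds of PGCLC against their stem cells, 2 to 3 for the interaction and 5 to 6 for PGCs against the stem cells. Of 1645 values of 87 gene comparisons under alternatives, 1528 kept direction and call, and 1 reversed. A filter of 1 TPM left out the lowest genes, so it gave no value for them. The cause of these changes was not tested. Voom was chosen after seeing the data. The shares of all genes called under voom and the other alternatives are not given, so the counts under them are no result about the set. At 0 to 27 reads a library for Cyp26a1, depth limits what a difference in the degrading enzymes can show.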
